A study of Mus musculus with 6 samples.

Results

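Afp, Apob and Ttr encode proteins that embryonic endoderm secretes, and they were examined as a group of 3 genes among the 1167 distinct genes that the authors of a Chd7 study listed as changed. They were found by exact symbol in the deposited lists. They were selected on a measured value, because all 3 were listed as higher in heterozygous otocysts, so that listing is a description of the group and not a result about it. The study sequenced polyadenylated RNA from mouse otocysts, the epithelial vesicles that become the inner ear, at embryonic day 10.5. Heterozygous embryos were Chd7Gt/+, homozygous embryos were Chd7Gt/Gt, and wild type embryos were Chd7+/+, with 2 libraries for each genotype, 6 in all, on the strain B6129SF1/J. Gt is the usual mouse symbol for a gene trap, and Chd7 encodes CHD7, an ATP-driven remodeller of chromatin. The labels name no Cre line, transgene promoter or clone, and they do not say how many embryos went into a library or whether replicate libraries were made from different embryos. The adjusted p-values therefore measure only the spread between these libraries, which may be technical.

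The deposited values are log2 fold changes of a mutant genotype over wild type with adjusted p-values, for called genes alone, and no value per library stands behind them. Depth, levels and the spread between libraries are thus unknown here, and the labelled tissue could not be checked by the level of its markers. The wild type libraries are shared by both comparisons, and heterozygotes were not compared with homozygotes directly. Xist, a transcript of female cells, was listed as higher in homozygotes (log2 fold 9.64 with adjusted p given as 0, per the authors' deposited table). It was not listed in heterozygotes. Embryo sex may thus differ between homozygous and wild type libraries, and its part in that comparison was not tested. The Y-linked genes Ddx3y, Eif2s3y, Kdm5d and Uty were listed in neither comparison. The lists held 43 genes higher and 95 lower in heterozygotes, and 416 higher and 669 lower in homozygotes. Chd7 was at 67.1% of wild type in heterozygotes and at 22.4% in homozygotes, as read from the authors' deposited table.

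Afp encodes alpha-fetoprotein, the main serum carrier protein of the fetus, which belongs to the albumin family. Apob encodes apolipoprotein B, the large structural protein around which triglyceride-rich lipoproteins are built. Ttr encodes transthyretin, a carrier of thyroid hormone that also holds retinol-binding protein in the circulation. In the mid-gestation mouse embryo the visceral endoderm of the yolk sac, and then the liver bud, make all of these proteins, and they serve as standard markers of those tissues. Ttr is also a marker of the choroid plexus, which arises from the roof of the brain ventricles. The otocyst itself forms from ectoderm. Transcription factors of the FOXA, HNF4 and C/EBP families are known to act on these genes in liver and yolk sac, and FOXA and HNF4 proteins were first isolated through their binding to liver gene promoters such as that of Ttr.

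All 3 genes rose in heterozygous otocysts by nearly the same factor. Apob was 4.06-fold higher than in wild type (log2 fold 2.02 with adjusted p of 2.28e-12, per the authors' deposited table). Ttr was 3.93-fold higher (log2 fold 1.98 with adjusted p of 1.34e-06, per the authors' deposited table). Afp was 3.72-fold higher (log2 1.90), with an adjusted p given as 0 in the authors' deposited table. Their log2 folds thus spanned 0.13 between the lowest and the highest, around a median of 1.98. Over all 43 genes higher in heterozygotes the authors' deposited table had a median log2 fold of 0.94. By size of fold the members held places 4, 5 and 6 of 43 and stood next to each other. By adjusted p Afp was among 4 genes of that list given as 0, Apob was in place 5 and Ttr in place 10. Of 21924 protein-coding symbols in the GENCODE M21 annotation, which stand in for the unknown number of genes tested, 0.178% were listed as higher in heterozygotes. Nothing is read from 3 of 3 members against that share, since the members were chosen from that list.

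**Figure D1:**
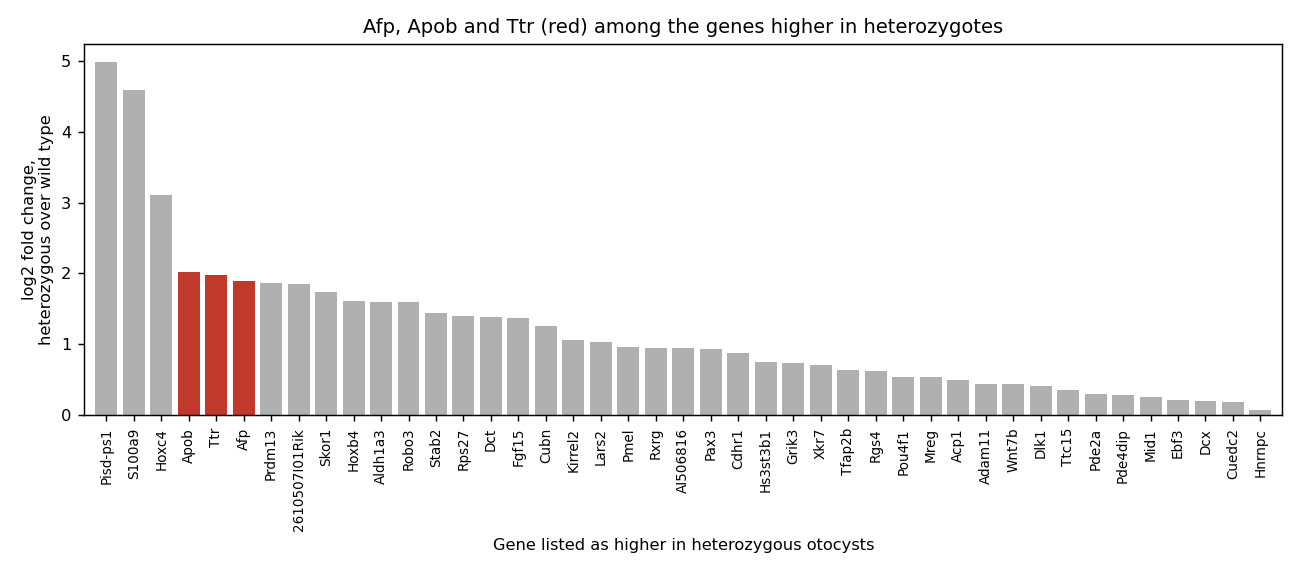
Log2 fold change of heterozygous over wild type otocysts for the 43 genes listed as higher, in the authors' deposited table, from the largest to the smallest; each bar is 1 gene and no error is given because no value per library stands behind it. Apob, Ttr and Afp (red) stand side by side in places 4 to 6, between 1.90 and 2.02.

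Just above them in the same list stood Hoxc4, a homeobox gene of the posterior body axis, at log2 3.11 (adjusted p of 0.00232, per the authors' deposited table). The gap between Hoxc4 and Apob was 1.09 on the log2 scale, while the gap below Afp to the neural transcription factor gene Prdm13 was 0.03. Prdm13 stood at log2 1.86 with adjusted p of 5.81e-05, per the authors' deposited table. Likeness to each member was measured as the distance between pairs of log2 folds among the 77 other named genes listed in heterozygotes but not in homozygotes. For each member the nearest 4 genes were the other members, Prdm13 and Skor1, which encodes a transcriptional corepressor. Skor1 was the farthest of them, with a log2 fold of 1.73 (adjusted p of 0.0259, per the authors' deposited table) and distances of 0.16 from Afp, 0.24 from Ttr and 0.29 from Apob. Genes of almost equal fold thus differed widely in adjusted p, from 0 for Afp to 0.0259 for Skor1. Each likeness rests on 1 fold per gene, since none of these genes has a deposited value in homozygotes. It therefore restates the heterozygous folds given above and adds nothing to them.

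None of the 3 members was listed in homozygous otocysts, in either direction. The homozygous lists hold only genes past the threshold, so a missing gene may have been higher, lower or the same as in wild type, or may not have been tested. Folds of the size seen in heterozygotes were listed for other genes there. Of the 416 genes higher in homozygotes, 116 had a log2 fold of at least that of Afp in heterozygotes, and 13 fell inside the members' own range. Adjusted p-values of those 13 ran between 2.4e-09 and 0.0297 in the authors' deposited table. Of all protein-coding symbols, 1.7% were listed as higher in homozygotes and 4.45% in either direction, so 0 of 3 lies close to what that share gives and is not a result about the members. The difference between heterozygotes and homozygotes was not tested for any member, and these data do not show that 1 trapped allele raised them more than 2 did. In bulk RNA more cells of a type and more RNA per cell cannot be told apart either.

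**Figure D2:**
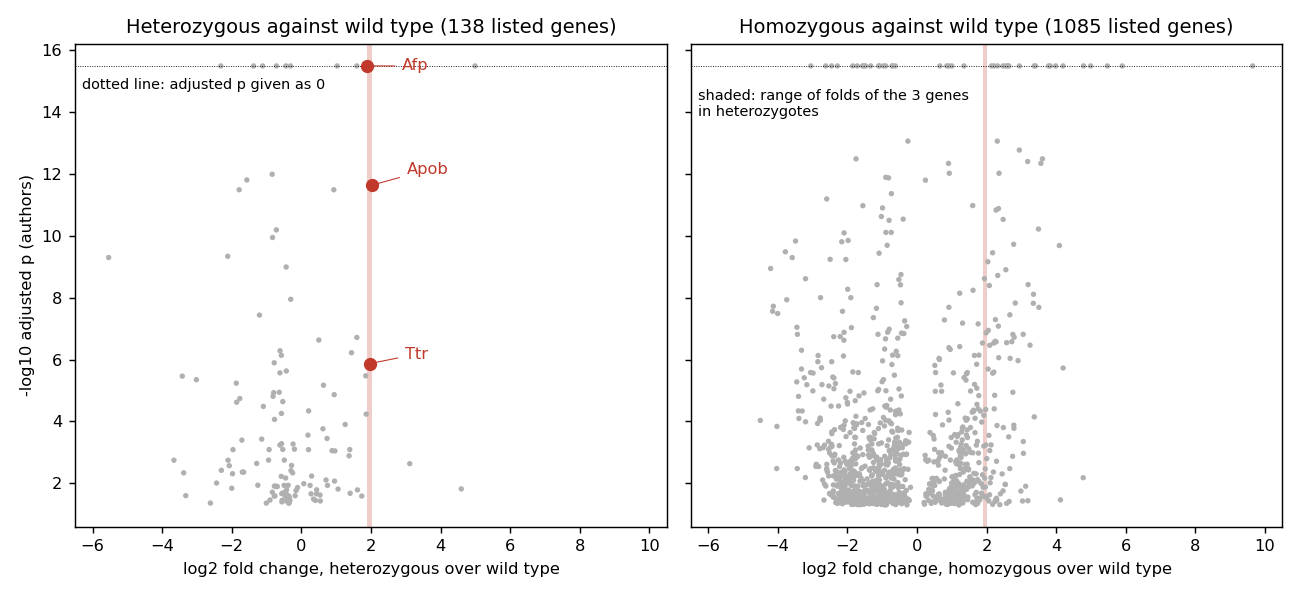
Log2 fold change over wild type against the negative log10 of the authors' adjusted p for every listed gene, in heterozygous (left) and homozygous (right) otocysts; points on the dotted line have an adjusted p given as 0. Afp, Apob and Ttr (red) have nearly equal folds at very different adjusted p-values in heterozygotes, and the shaded band between 1.90 and 2.02 holds 13 other genes in homozygotes.

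The sequence just before the earliest annotated start is shown for Afp and Apob, which were both selected as higher in heterozygotes and lie on different chromosomes. RefSeq promoter windows of the mouse build GRCm38.p6 gave a match for 2 of the 3 members. The stretches run 5′ to 3′ on the plus strand and end at the base before the earliest annotated start in RefSeq or GENCODE M21. They are chr5:90490464-90490713 for Afp and chr12:7977427-7977628 for Apob. Capitals mark matches on either strand to the letters of known motifs.

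Afp: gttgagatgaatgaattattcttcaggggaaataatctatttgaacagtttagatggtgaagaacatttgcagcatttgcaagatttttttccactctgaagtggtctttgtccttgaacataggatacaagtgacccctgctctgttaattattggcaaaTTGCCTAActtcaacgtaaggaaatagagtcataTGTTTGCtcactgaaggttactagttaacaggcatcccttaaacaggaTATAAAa

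Apob: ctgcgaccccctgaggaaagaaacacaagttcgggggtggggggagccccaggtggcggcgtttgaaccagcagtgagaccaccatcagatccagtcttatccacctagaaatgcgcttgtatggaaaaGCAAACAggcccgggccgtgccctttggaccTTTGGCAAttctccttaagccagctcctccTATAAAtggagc

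The motifs searched on both strands were the TATA box TATAAA, the FOXA motif TGTTTNC, the C/EBP motif TTGCNNAA and the HNF4 motif CAAAGTCCA. Both stretches held TATAAA near their end, TGTTTNC and TTGCNNAA. Neither stretch held CAAAGTCCA. Among the 250 bases before the start in all 32851 RefSeq windows, TATAAA was found in 12.4%, TGTTTNC in 17.8%, TTGCNNAA in 9.56% and CAAAGTCCA in 0.384%. Those windows were not cut at the earliest annotated start, while the Apob stretch was cut to 202 bases, so the shares are only a rough guide. No match overlapped another in the printed stretches. These are matches of letters only, and binding was not measured.

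The members differ in gene structure. The longest annotated transcript in GENCODE M21 has 13934 nt in 29 exons for Apob, 2063 nt in 15 exons for Afp and 1186 nt in 4 exons for Ttr. Among the 42 heterozygous higher genes with a length, whose median was 3451 nt, Apob was the longest, Afp was in place 35 and Ttr in place 39. A nearly equal fold was thus listed for transcripts at both ends of the length range. Of the 10 nearest protein-coding genes in GENCODE M21, 5 on each side, none was listed in heterozygotes for any member. In homozygotes 1 neighbour of Afp, Ankrd17, was listed as lower, 1 neighbour of Apob, the roof plate signal gene Gdf7, was listed as higher, and 0 of 10 neighbours of Ttr were listed. These counts are near what 0.584% in heterozygotes and 4.45% in homozygotes give for 10 genes, so they are not a result about the neighbourhood. Alb and Afm, albumin family genes on either side of Afp, were not listed in either comparison.

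Of other plasma carriers, protease inhibitors and clotting proteins few were listed. In a list of 26 such genes, 3 were called in heterozygotes, Afp and Ttr higher and Vtn lower, and 23 were not listed. Over all protein-coding symbols 0.584% were listed in heterozygotes in either direction, and the 2 higher genes in this list are members. All gene lists used here were chosen with earlier results of these data known, so their shares are descriptions and not tests. Vtn, which encodes the adhesive plasma protein vitronectin, fell to 33.8% of wild type (log2 fold -1.57 with adjusted p of 1.54e-12, per the authors' deposited table). The genes not listed included Alb for albumin, Trf for transferrin, Rbp4 for the retinol-binding protein that transthyretin carries, and the fibrinogen genes Fga, Fgb and Fgg. In homozygotes 1 of the 26 was listed, the ferroxidase gene Cp for ceruloplasmin, which was 2.40-fold higher (log2 fold 1.26 with adjusted p of 0.00334, per the authors' deposited table). That share of 3.85% is near the 4.45% of all protein-coding symbols.

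Among 20 genes of apolipoproteins and lipoprotein assembly, Apob, the member itself, was the only gene listed in heterozygotes. Mttp, which loads lipid onto apolipoprotein B, Apobec1, which edits its messenger RNA, and the apolipoprotein genes Apoa1, Apoa2, Apoa4, Apoc1, Apoc2, Apoc3 and Apom were listed in neither comparison. In homozygotes 1 of the 20, Apoe, was listed, 1.89-fold higher (log2 fold 0.92 with adjusted p of 0.0452, per the authors' deposited table). This 5% of the list is near the 4.45% of all protein-coding symbols. Apoe encodes the ligand by which lipoproteins bind their receptors and is also made by many other cells.

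Receptors that take up lipoproteins and carrier proteins had 1 listed gene of 17 in heterozygotes, Cubn, or 5.88% against 0.584% of all protein-coding symbols. It encodes cubilin, a receptor at the apical surface of visceral endoderm and kidney tubule that binds albumin, transferrin and the vitamin B12 carrier. Cubn was 2.39-fold higher in heterozygotes (log2 fold 1.26 with adjusted p of 0.000126, per the authors' deposited table) and was not listed in homozygotes. Amn, the membrane partner of cubilin, Lrp2 for megalin and the endocytic adaptor gene Dab2 were listed in neither comparison. In homozygotes 3 of the 17 were listed, none of them Cubn, or 17.6% against 4.45%. Vldlr, the receptor gene for very low density lipoprotein and reelin, was 5.13-fold higher (log2 fold 2.36 with adjusted p of 9.37e-13, per the authors' deposited table). Scarb1, the receptor gene for high density lipoprotein, was 1.98-fold higher (log2 fold 0.99 with adjusted p of 0.00073, per the authors' deposited table). Lrp8, which encodes another reelin receptor, fell to 40.5% of wild type (log2 fold -1.30 with adjusted p of 0.00578, per the authors' deposited table).

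Around Ttr, a list of 20 genes for retinol and thyroid hormone carriers, transporters, deiodinases and receptors had 1 called member in each comparison. In heterozygotes this was Ttr itself. In homozygotes it was Dhrs3, a retinaldehyde reductase gene, at 2.14-fold of wild type (log2 fold 1.10 with adjusted p of 0.00986, per the authors' deposited table). The share of 5% in homozygotes is near the 4.45% of all protein-coding symbols. The retinol-binding protein receptor gene Stra6, the thyroid hormone receptor genes Thra and Thrb and the deiodinase genes Dio2 and Dio3 were listed in neither. Other retinoid genes, which this list leaves out, were listed by the authors. In heterozygotes Aldh1a3 (log2 1.59) and Rxrg (0.95) were higher and Cyp26b1 (-0.43) was lower. In homozygotes Aldh1a3 (log2 2.58) and Rarb (1.92) were higher, and Aldh1a1 (-2.59), Aldh1a2 (-2.70) and Cyp26b1 (-1.21) were lower.

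Of 21 regulators of endoderm genes, 2 were listed in heterozygotes and both fell, which is 9.52% against 0.584% of all protein-coding symbols. Foxa2 was at 9.34% of wild type (log2 fold -3.42 with adjusted p of 3.43e-06, per the authors' deposited table). Foxa1 was lower by nearly as much (log2 fold -3.32 with adjusted p of 0.0252, per the authors' deposited table). Both encode FOXA factors, which are also made in the floor plate of the neural tube. In homozygotes 3 of the 21 were listed, or 14.3% against 4.45%, and 1 of these 3 passed an adjusted p under 0.01. The endoderm factor gene Gata6 was 6.88-fold higher (log2 fold 2.78 with adjusted p of 0.000132, per the authors' deposited table). Hnf4a, which encodes the liver and yolk sac factor HNF4A, was 6.27-fold higher (log2 fold 2.65 with adjusted p of 0.0389, per the authors' deposited table). Onecut1, also known as HNF6, fell to 23.6% of wild type (log2 fold -2.08 with adjusted p of 0.0102, per the authors' deposited table). Zhx2, Zfhx3 and Zbtb20, known repressors of Afp, were listed in neither comparison, and neither was Cebpa.

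**Figure D3:**
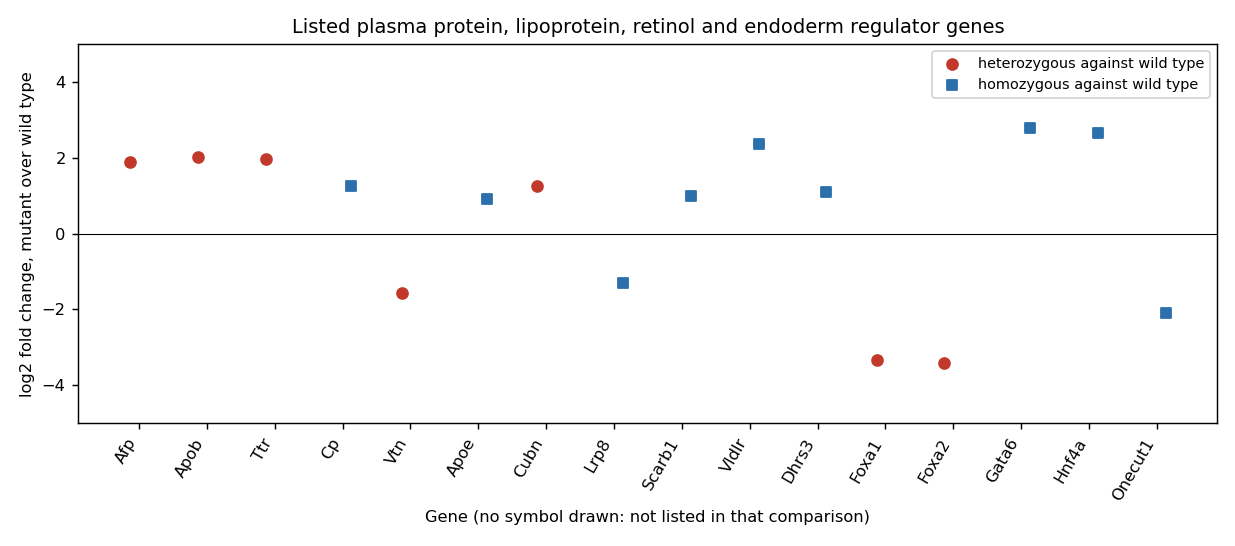
Log2 fold change over wild type in the authors' deposited table for each listed gene of the plasma protein, lipoprotein, retinol and thyroid hormone, and endoderm regulator lists; circles are heterozygous and squares homozygous otocysts, and a gene with no point in a comparison was not listed there. Every gene drawn has a point in 1 comparison only, with Afp, Apob, Ttr and Cubn higher and Vtn, Foxa1 and Foxa2 lower in heterozygotes.

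Markers of tissues that a dissected otocyst could carry were counted beside the members. Their lists too were chosen with earlier results of these data known, so a high share is a description and not a test. Of 21 visceral endoderm and yolk sac markers, 5 were listed in heterozygotes, the members and Cubn higher and Foxa2 lower. Beside the members, Cubn stood at log2 1.26 and Foxa2 at log2 -3.42 in the authors' deposited table. The members make up 3 of these 5, so the list gives no support of its own, and 16 of the 21 were not listed. In homozygotes 3 of the 21 were listed, Gata6, Hnf4a and Apoe, all higher, against the 4.45% of all protein-coding symbols. Of these, only Gata6 passed an adjusted p under 0.01. The list of 18 pharyngeal and foregut endoderm markers had 4 listed genes in heterozygotes, all lower, which is 22.2% against 0.584% of all protein-coding symbols. It had 0 in homozygotes, close to what 4.45% gives for 18 genes. The 4 were Foxa1, Foxa2, the signal gene Shh at log2 -5.54 (adjusted p of 4.98e-10) and the pharyngeal pouch gene Pax1 at log2 -2.07 (adjusted p of 0.00271), per the authors' deposited table. Foxa2 stands in both lists. Shh, Foxa1 and Foxa2 are also made in the floor plate of the neural tube, so they do not mark endoderm alone. Other floor plate or ventral neural tube genes were lower in heterozygotes too. Among them were Nkx2-2 (log2 -3.02), Spon1 (-2.31), Nkx6-1 (-2.12) and Ntn1 (-1.37) in the authors' deposited table. Which tissue these lower values came from was not tested.

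Roof plate and choroid plexus markers had 2 listed genes of 25 in heterozygotes, or 8% against 0.584% of all protein-coding symbols. Nothing is read from that share, since it counts the member Ttr, which was selected as higher. The other listed gene was the lysophospholipase gene Enpp2, which was lower (log2 fold -0.81 with adjusted p of 1.54e-05, per the authors' deposited table). The choroid plexus genes Kl, Folr1, Clic6, Kcnj13 and Kcne2 were listed in neither comparison. Homozygotes had 5 listed genes of the 25, or 20.0% against 4.45%, and Ttr was not among them. Of these 5, 3 passed an adjusted p under 0.01. The roof plate signal genes Wnt1 (log2 3.19) and Gdf7 (2.40) and the choroid plexus gene Sostdc1 (1.78) were higher, and Trpm3 (-2.09) and Enpp2 (-1.31) were lower, in the authors' deposited table.

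Blood cell and vessel markers were counted in the same way, beside 0.584% of all protein-coding symbols listed in heterozygotes and 4.45% in homozygotes. Erythroid markers had 4 listed genes of 20 in heterozygotes (20.0%), all lower. Of these 4, 2 passed an adjusted p under 0.01, 0 passed 0.001 and 1 had an absolute log2 fold of at least 1. Their median in the authors' deposited table was -0.40 (log2). They were the globin genes Hba-a1 (log2 -0.30), Hba-x (-0.36) and Hbb-b2 (-2.44) and the anion exchanger gene Slc4a1 (-0.44) in the authors' deposited table. Globin genes share reads with near-identical copies, so the split among them is uncertain. In homozygotes 2 of the 20 (10%) were listed, Hba-a2 (log2 -1.47) and Slc4a1 (-1.31), both lower, in the authors' deposited table. Macrophage markers had 0 listed genes of 17 in both comparisons, close to what these shares give. Of 9 neutrophil granule markers 1, S100a9, was listed in heterozygotes, 11.1% of the list (log2 fold 4.59 with adjusted p of 0.0152, per the authors' deposited table) and 0 in homozygotes. Endothelial markers had 1 listed gene of 17 (5.88%) in heterozygotes, the scavenger receptor gene Stab2 (log2 fold 1.44 with adjusted p of 5.99e-07, per the authors' deposited table). In homozygotes 4 of the 17 (23.5%) were listed, Stab2 (log2 2.23), Pecam1 (0.92), Emcn (0.60) and Egfl7 (0.46), all higher in the authors' deposited table.

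Otic vesicle markers, the labelled tissue, had 0 listed genes of 18 in heterozygotes, which is close to what the 0.584% of all protein-coding symbols gives. In homozygotes 5 of the 18 were listed, or 27.8% against 4.45%, and all were lower, among them Otx1 (log2 -4.20), Otol1 (-4.15), Oc90 (-2.21) and Eya1 (-1.33) in the authors' deposited table. Only called genes are known for any of these lists, so the amount of each tissue in a library was not measured, and its part in the rise of Afp, Apob and Ttr was not tested.

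**Figure D4:**
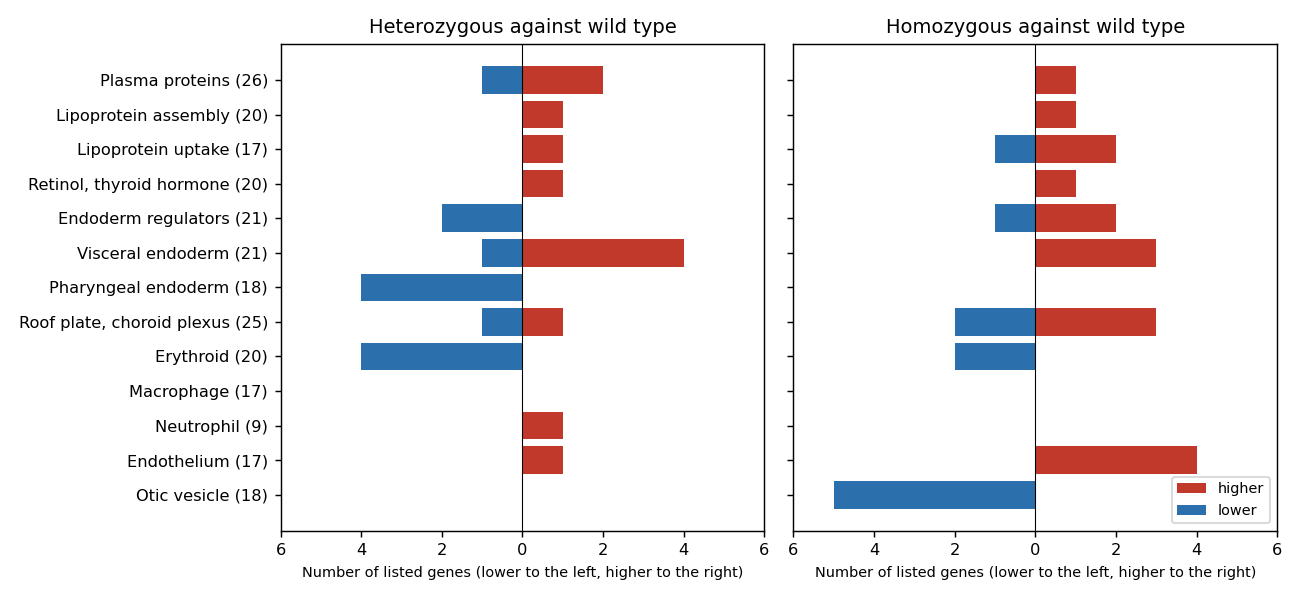
Number of genes of each list that the authors called higher (right, red) or lower (left, blue) than wild type, in heterozygous and homozygous otocysts, with the size of each list in brackets; some genes stand in more than 1 list. Visceral endoderm markers have 4 higher and 1 lower gene in heterozygotes, but the higher genes are Cubn and the members, which were selected as higher. Pharyngeal endoderm and erythroid markers have 4 lower genes each in heterozygotes.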

How the data were processed

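Otocyst RNA of 3 genotypes was sequenced, with 2 libraries per genotype, and groups follow the genotype label. The authors deposited 4 lists of called genes, each with a log2 fold change of mutant over wild type. The p-values in the deposited lists are adjusted p-values, all under 0.05. Bowtie2 2.0.6, DESeq 1.22.1 and the build mm9 are named per the submitters' processing notes, with no roles. Filters, read counting and depth were not given in the sources used here. An adjusted p given as 0 is printed so.

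Values were taken as deposited and no new test was run. Linear folds are 2 raised to the log2 fold. The 13 gene lists besides the members hold 222 distinct genes, 23 of them in more than 1 list, and 219 of the 222 have a symbol in GENCODE M21. The members and lists were chosen with earlier results of these data known. Named genes are the members, Chd7, up to 6 called genes per list by adjusted p, the 4 most like genes by distance in log2 folds, and the next gene above and below by fold, with predicted genes passed over. Some genes that this rule names are left out of the text, and a few listed genes outside it are named, chosen after their values were seen. Genes named as not listed were chosen after their values were seen. Motif matching was checked on made-up sequences. Python 3.11.15, pandas 2.3.3, numpy 2.4.6 and matplotlib 3.10.9 were used.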

Additional observations from a re-analysis of the deposited data

How the results depend on the processing

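Counts of members were 3 in heterozygotes and 0 in homozygotes or in both comparisons at adjusted p under 0.01, at adjusted p under 0.001, with a minimum absolute log2 fold of 1 and with synonyms and letter case accepted. The members were selected on the first count, and a stricter threshold can only remove genes, so these counts say nothing about stability. Genes called in any list numbered 16 in heterozygotes and 25 in homozygotes. At adjusted p under 0.001 they fell to 9 and 12, since fewer genes were then called. Accepting synonyms gave 16 and 26. Erythroid genes called in heterozygotes fell to 2, 0 and 1 under the stricter p-values and the minimum fold, against 4. At adjusted p under 0.01, endoderm regulators and visceral endoderm markers called in homozygotes each fell from 3 to 1. Roof plate and choroid plexus markers fell from 5 to 3 there, while otic vesicle markers stayed at 5. Of 26 counts for single lists, 8 moved by over 1.5 times at adjusted p under 0.01, 12 at 0.001, 4 at the minimum fold and 0 with synonyms. With the sign of the fold ignored, 8 of the 12 like genes named for the members stayed among their nearest 4. No paired analysis was possible because the deposited lists give no value per library, and leaving out libraries was not run for the same reason. The unknown depth limits what absence from a list can show.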
